A study of Homo sapiens with 18 samples.

Results

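The 10 genes described here carry or execute the retinoic acid signal: the nuclear receptors RARA, RARB, RARG, RXRA and RXRB, the binding proteins CRABP1 and CRABP2, and the enzymes CYP26A1, CYP26B1 and DHRS3. They were taken by gene symbol, and all 10 were found among the 57905 Ensembl genes counted in each library. RNA came from BE(2)-m17, a human neuroblastoma cell line. Every cell carried pSBbi-Hyg-APP, a Sleeping Beauty transposon vector for the amyloid precursor protein, and was made stable before the line was divided. The empty vector control cells additionally carried pSBbi-Pur, and the ABCC1-overexpressing cells carried the same vector with codon-optimized wild type ABCC1, a membrane transporter of the ATP-binding cassette family. Both are drug-selected lines with vectors at random integration sites. No retinoid was among the treatments named. The comparison of these lines was made in 3 separate experiments, each with 3 libraries per line, which gives 18 libraries in 6 groups. In each experiment 14000000 cells were plated per well and lysed on day 4. The first experiment used a TruSeq mRNA kit, and the second and the third, taken as cryopreserved and as newly transfected cells from their order in the methods, used a total RNA kit. Libraries of one group are separate samples from weekly platings of one line, so p-values measure the spread between these samples and not between independent transfections.

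Retinoic acid is made from vitamin A and acts as the ligand of the RAR receptors, which bind DNA as heterodimers with an RXR receptor at direct repeats of a short hexamer. Without ligand the pair holds corepressors, and with ligand it exchanges them for coactivators. CRABP2 delivers retinoic acid to the RARs in the nucleus, CRABP1 binds it in the cytosol, the CYP26 enzymes oxidize it for clearance, and DHRS3 turns retinaldehyde back into retinol. RARB, CYP26A1 and DHRS3 are themselves well known targets of the receptors. Retinoids induce differentiation in neuroblastoma cells and are used in the treatment of the disease.

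The start regions below are shown for members with and without an exact match, near a start, to the repeat the receptors are known to bind. The 20 promoter windows that RefSeq (GRCh38.p14) gives for the 10 members, each from 250 bases before to 50 after a transcription start, were searched on both strands for direct repeats of any of the hexamers AGGTCA or GGGTCA or AGTTCA or GGTTCA with 1, 2 or 5 bases between them. Of these windows, 2 held such a repeat, one in RARB (of its 4 windows) and one in CYP26A1 (of its 2). Among all 35116 windows of the same length, 91 held one, a share of 0.259%, and 31 (0.0883%) held the form with 5 bases between, which is the form of both members. The hexamer alone is common and was present in 38.6% of all windows and in 9 of the 20. Capitals mark both hexamers of each repeat and the single hexamer of CRABP2, while a further hexamer of the RARB window, which is in no repeat, is left in lower case. In RARB (chr3:25428013-25428262, plus strand) the repeat spans 17 bases, from 53 to 37 bases before the start. In CYP26A1 (chr10:93073797-93073825, plus strand) it also spans 17 bases, lies 90 to 74 bases before the start on the opposite strand, and is shown with 6 bases either side. The window of CRABP2 (chr1:156705817-156706034, minus strand, the stretch before its first annotated exon) held 1 hexamer and no repeat. These are matches of letters in a window and say nothing of binding. A repeat outside the windows or of other letters was not searched for, so a window without a match does not show that a gene lacks one.
RARB: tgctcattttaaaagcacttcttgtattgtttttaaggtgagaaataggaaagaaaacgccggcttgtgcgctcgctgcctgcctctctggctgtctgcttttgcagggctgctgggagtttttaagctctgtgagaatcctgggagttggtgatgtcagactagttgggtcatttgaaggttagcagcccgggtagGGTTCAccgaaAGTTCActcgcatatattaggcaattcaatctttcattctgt
CYP26A1: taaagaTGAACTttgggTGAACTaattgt
CRABP2: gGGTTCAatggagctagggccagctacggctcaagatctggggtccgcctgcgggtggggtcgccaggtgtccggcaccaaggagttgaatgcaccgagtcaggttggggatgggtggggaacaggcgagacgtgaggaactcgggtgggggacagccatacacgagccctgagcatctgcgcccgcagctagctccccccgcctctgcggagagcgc

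The libraries of the first experiment held 27433393 to 57937653 assigned read pairs, those of the second 19577853 to 30996228 and those of the third 8866994 to 13332413. The codon-optimized ABCC1 sequence had 0 to 15 read pairs in each empty vector library and 51035 to 594404 in each ABCC1 library, so every library matched its label. The adrenergic markers of neuroblastoma were present, with 7 or 8 of 8 at 1 CPM (the count scaled to the effective library size) or more in every library of each group and a summed level of 4193 to 7104 CPM. In the second experiment that sum was 4193 to 4969 CPM in the empty vector and 5988 to 6589 CPM in the ABCC1 libraries. The 8 mesenchymal or Schwann markers summed to 141.0 to 273 CPM, with 265 to 273 CPM in the empty vector and 244 to 262 CPM in the ABCC1 libraries of the first experiment. The 5 immune markers had a lower sum in the ABCC1 libraries of every experiment, at 0.155 to 0.195 against 0.476 to 0.624 CPM in the first, 2.22 to 8.29 against 10.4 to 12.1 in the second and 19.7 to 22.7 against 32.7 to 34.9 in the third. The 4 epithelial markers stood at 4.39 to 8.55 CPM in the ABCC1 and 11.7 to 19.1 in the empty vector libraries of the second, and overlapped between lines in the first (at most 0.966 CPM) and the third (21.3 to 31.5 CPM). The sum of the 5 fibroblast markers was higher in the ABCC1 libraries of the first experiment (184 to 188 against 121 to 125 CPM), lower in the third (71.7 to 80.4 against 85.1 to 98.2) and overlapped in the second (65.3 to 106 CPM), and the part of these sums in the results below was not tested. Reads on genes that should be silent differed between experiments and lines. Over 372 olfactory receptor genes the level was 0.0038 to 0.0053 CPM per kilobase in the first experiment. In the second experiment it was 0.576 ± 0.088 CPM per kilobase in the empty vector controls and 0.302 ± 0.144 in the ABCC1 libraries (SD, n = 3), and in the third 1.57 ± 0.095 and 1.24 ± 0.156. This background is set beside the low levels below.

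Per kilobase of exon, CRABP2 was the highest of the 10 genes in all 6 groups. In the empty vector cells of the first experiment it reached 119 ± 4.09 CPM per kilobase (SD, n = 3), against 14.1 ± 0.55 for RXRB and 12.2 ± 0.49 for RARA, the next in order. RXRA (2.95), CRABP1 (2.66), RARB (2.08) and RARG (1.72) followed, and the ranges of these neighbours did not overlap in that group. The retinoid-inactivating enzymes were at the bottom, DHRS3 at 0.358, CYP26B1 at 0.0395 and CYP26A1 at 0.0245 CPM per kilobase, the last pair with overlapping ranges. CRABP2, RXRB and RARA kept the first 3 places in every group. In the third experiment RXRB and RARA overlapped in both lines. The lower places differed between experiments, as did the background. RARB stood 428 times above the olfactory receptor level in the empty vector cells of the first experiment, but only 1.54 times above it in the second and 1.43 times in the third. CYP26B1 and DHRS3 stood 0.948 and 0.972 times as high as background in the empty vector cells of the second experiment, so their levels there cannot be separated from it. CRABP2 remained 43.0 to 177 times above background in the 4 groups of the repeat experiments.

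**Figure D1:**
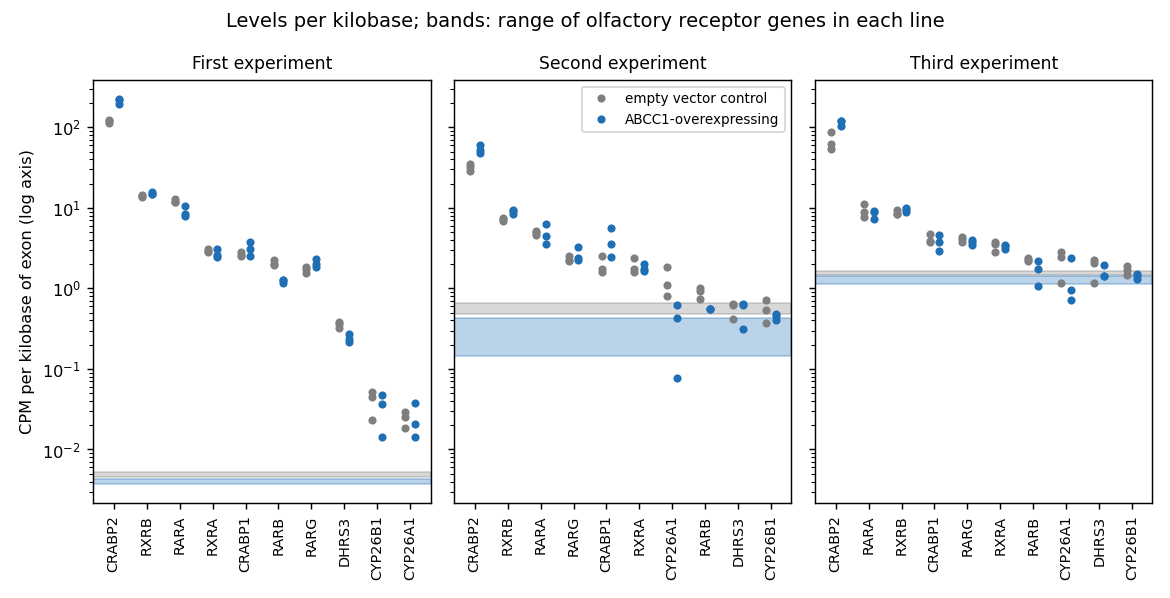
Levels of the 10 genes in CPM per kilobase of exon (log axis) in each library of the 3 experiments, ordered by the empty vector mean, with grey points for empty vector control and blue for ABCC1-overexpressing cells. The shaded bands are the range of the olfactory receptor level in each line. CRABP2 lies far above the bands in every panel, while RARB, DHRS3, CYP26A1 and CYP26B1 reach them in the repeat experiments.

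Between the lines, CRABP2 was the only one of the 10 genes called higher in each of the 3 experiments at an adjusted p of at most 0.05 (quasi-likelihood test of edgeR, with the Benjamini-Hochberg correction for all genes tested). In the first experiment 4 of the 8 members tested were called, where 37.6% of all genes tested were, 17.9% higher and 19.7% lower: CRABP2 rose, and RARB, RARA and DHRS3 fell. In the second experiment 1 of 10 was called, higher, against 1.7% of all genes (1.25% higher and 0.458% lower), and in the third 1 of 10, also higher, against 2.8% (2.03% and 0.767%). A joint fit of all 18 libraries called 3 of 10, against 12.9% of all genes (9.39% higher and 3.55% lower): CRABP2 and RXRB higher and RARB lower. Of the 9586 well expressed genes, a set defined below, 40.1% were called in the joint fit (37.4% higher and 2.77% lower). In the 3 experiments, in order, 41.2%, 4.37% and 8.12% of that set were called. Among the members it holds RARA, RXRA, RXRB and CRABP2, and not RARB. The median log2FC of the members was -0.01 in the first experiment, -0.05 in the second and -0.14 in the third, beside 0.01, -0.19 and -0.09 over all genes tested. The libraries of the lines did not overlap for 5 members in the first experiment (50.4% of all genes), 4 in the second (29.8%) and 1 in the third (19.5%).

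**Figure D2:**
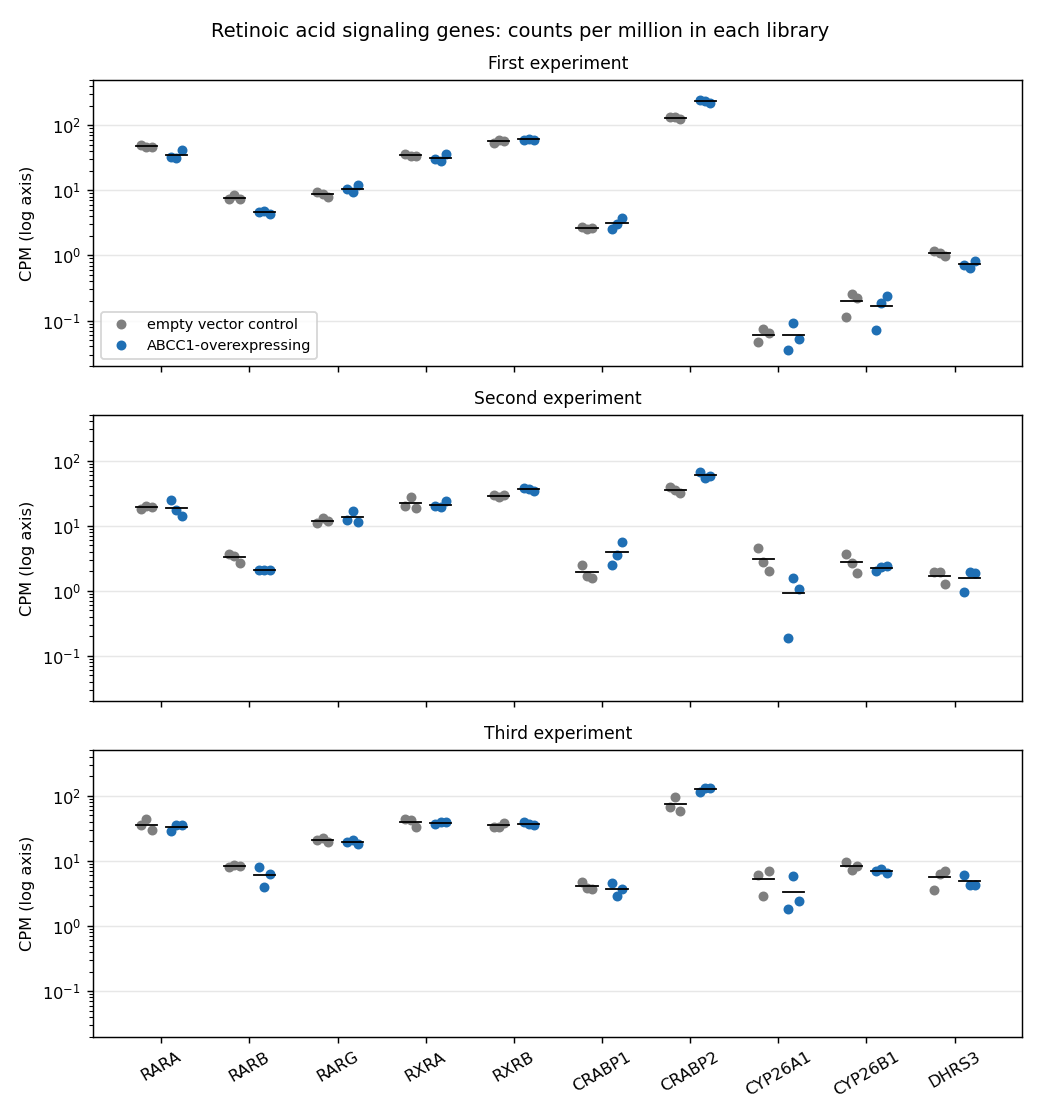
CPM of each gene in each library (log axis), one panel per experiment, with grey points for empty vector control cells, blue points for ABCC1-overexpressing cells and a line at the mean of 3 libraries. The blue points of CRABP2 lie above the grey ones in all panels, and those of RARB lie below them in the upper and middle panels and meet them in the lower one.

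CRABP2 (ENSG00000143320, chr1:156669398-156675608, minus strand, GRCh37), the protein that carries retinoic acid to its receptors, was higher in the ABCC1-overexpressing cells of every experiment. In the first experiment its level was 135, 132 and 126 CPM in the empty vector controls and 247, 237 and 217 CPM in the ABCC1 libraries. In the second it was 38.7, 35.4 and 31.8 CPM against 65.8, 53.1 and 57.8 CPM. In the third it was 67.3, 97.1 and 58.7 CPM against 115, 131 and 131 CPM. All ABCC1 libraries were above all empty vector libraries of their experiment, and in the third the middle empty vector library came closest. The fold was 1.79 in the first experiment (log2FC 0.84 ± 0.053 SE, adjusted p = 1.02e-06), 1.67 in the second (0.74 ± 0.16, adjusted p = 0.0237) and 1.69 in the third (0.75 ± 0.18, adjusted p = 0.0060). The joint fit gave 1.79 (log2FC 0.84, 95% interval 0.65 to 1.03, adjusted p = 2.44e-09), and the difference between experiments did not pass (adjusted p = 1.0). With 3 libraries per line the smallest p of an exact two-sided permutation test is 0.1, the value of CRABP2 in each experiment. In bulk RNA a larger share of cells with the transcript and more transcript per cell cannot be told apart.

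Well expressed genes as a whole were higher in the ABCC1 libraries of the repeat experiments, a fact that bears on every gene of this kind. Over the 9586 genes with a mean of at least 10 CPM in both lines of the first experiment, a set defined after the results were seen, the median log2FC was 0.01 in the first experiment, 0.26 in the second, 0.13 in the third and 0.20 in the joint fit. CRABP2 lay above 99.7% of these genes in the first experiment, above 98.1% in the second and above 97.7% in the third. With the olfactory receptor level as a covariate its log2FC was 0.60 in the second experiment (adjusted p = 0.671) and 0.31 in the third (adjusted p = 0.757), both without a call. In each experiment that level was higher in all empty vector libraries than in all ABCC1 libraries. The covariate therefore overlaps with the line, and a call that ends with it, here and below, cannot tell background from line. The joint call was present with that covariate (0.65, adjusted p = 0.0011). The call in the second experiment also ended without empty vector replicate 2 or 3 (log2FC 0.75 and 0.68) or ABCC1 replicate 1 or 2 (0.66 and 0.82). That in the third ended without empty vector replicate 1 or 3 (0.72 and 0.64) or ABCC1 replicate 2 or 3 (0.73 and 0.73).

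CRABP1 (ENSG00000166426, chr15:78632666-78640572, plus strand), the cytosolic relative, was far less abundant, and CRABP2 made up between 93.2% and 98.5% of the summed CPM per kilobase of the pair in the group means. In the second experiment CRABP1 had 56, 51 and 33 read pairs in the empty vector controls and 64, 78 and 173 in the ABCC1 libraries, and the normalized levels overlapped (1.59 to 2.48 against 2.44 to 5.58 CPM). Its log2FC was 1.01 there (SE 0.42, adjusted p = 0.171), 0.23 in the first experiment (adjusted p = 0.273) and -0.14 in the third (adjusted p = 0.886), with no call. With the spread shared across all 18 libraries it was called in the second (1.03, adjusted p = 0.0244). Background was an estimated 29.7% of the CRABP1 level in the empty vector cells and 7.76% in the ABCC1 cells of the second experiment, and 37.8% and 32.8% in the third. The joint fit gave 0.43 ± 0.18 (adjusted p = 0.105), which became a call without ABCC1 replicate 1 of the second experiment (0.51, adjusted p = 0.0187).

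**Figure D3:**
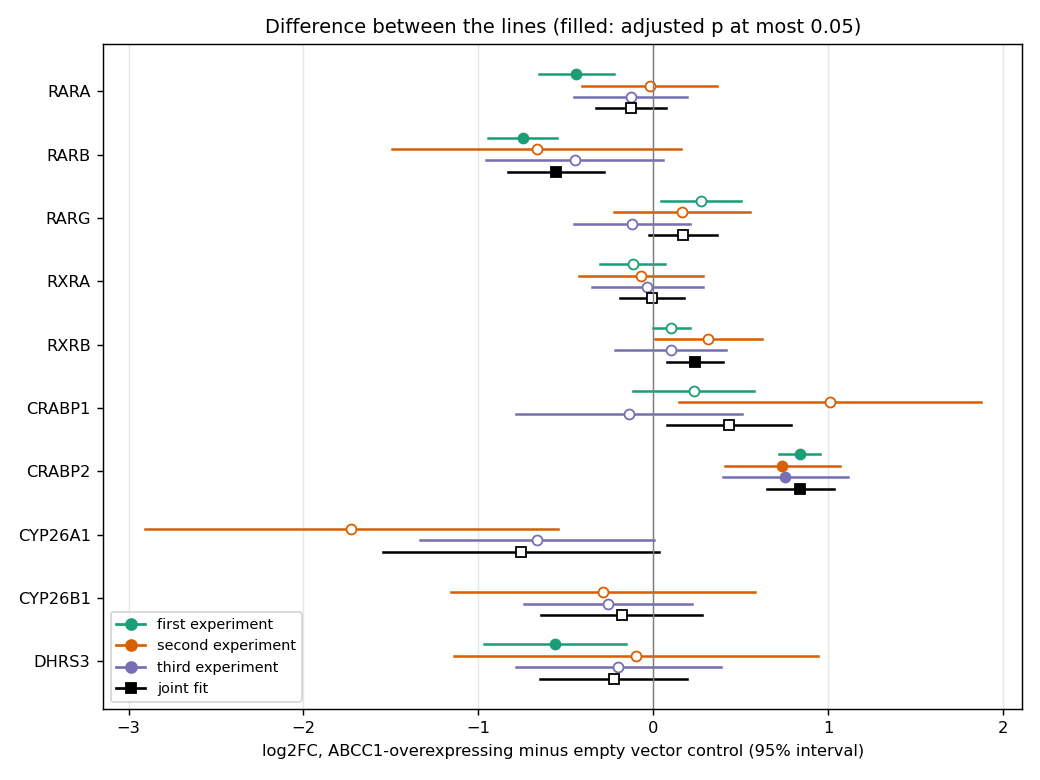
log2FC of each gene, ABCC1-overexpressing minus empty vector control, with 95% intervals, for the 3 experiments (circles) and the joint fit (squares); filled symbols passed an adjusted p of 0.05. CRABP2 is filled on the right in all 4 rows, RARB is on the left in all 4 and filled in the first experiment and the joint fit, and the CYP26 genes have no value for the first experiment, where they were too low to test.

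Of the retinoic acid receptors, RARB and RARA were called lower in the ABCC1-overexpressing cells of the first experiment and of no other. RARB was also called lower in the joint fit. RARB (ENSG00000077092, chr3:25215823-25639423, plus strand) encodes the receptor whose own gene is a classic retinoic acid target. Its level in the first experiment was 7.29, 8.34 and 7.45 CPM in the empty vector controls and 4.65, 4.74 and 4.34 in the ABCC1 libraries, which did not overlap. In the second it was 3.71, 3.41 and 2.7 CPM against 2.06, 2.06 and 2.06, again without overlap, and in the third 8.01, 8.80 and 8.23 CPM against 8.03, 3.95 and 6.35, with overlap. The fold was 0.596 in the first experiment (log2FC -0.75 ± 0.090 SE, adjusted p = 1.08e-04). The log2FC was -0.67 ± 0.40 in the second (adjusted p = 0.335) and -0.45 ± 0.26 in the third (adjusted p = 0.414), neither called. The joint fit gave -0.56 (95% interval -0.83 to -0.28, adjusted p = 0.00247). This call was present in 22 of its 23 alternatives and ended with the olfactory receptor level as a covariate (log2FC -0.40, adjusted p = 0.494), a fit added after the values were seen. With the same covariate in each experiment alone RARB was still called in the first (-0.64, adjusted p = 0.0472), and stood at -0.65 in the second (adjusted p = 0.905) and at -0.031 in the third (adjusted p = 0.993). Background accounted for an estimated 0.234% and 0.326% of the RARB level in the empty vector and ABCC1 cells of the first experiment, for 65.0% and 54.2% in the second and for 69.7% and 75.0% in the third. After it was taken off, RARB stood at 1.14 ± 0.56 and 0.946 ± 0.533 CPM in the second experiment and at 2.53 ± 0.74 and 1.53 ± 1.69 CPM in the third (SD, n = 3), so the means differed by less than either SD in the second experiment and by less than the SD of the ABCC1 libraries in the third. Of 4073 genes without a read pair in the first experiment, between 82.4% and 90.5% had a lower level per kilobase than RARB in the 4 groups of the repeat experiments. With the spread shared across all 18 libraries the call in the first experiment ended (log2FC -0.65, adjusted p = 0.117).

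RARA (ENSG00000131759, chr17:38465444-38513094, plus strand) is the most widely expressed of these receptors and was the main one here. In the first experiment it had 50.03, 47.1 and 46.4 CPM in the empty vector controls and 32.8, 31.2 and 41.5 CPM in the ABCC1 libraries. All ABCC1 libraries were below all empty vector libraries, a fold of 0.737 (log2FC -0.44 ± 0.096 SE, adjusted p = 0.0057). The log2FC was -0.02 ± 0.19 in the second experiment and -0.13 ± 0.16 in the third, with overlapping libraries and no call, and the first of these changed sign with other size factors. The call in the first experiment ended with the background covariate (-0.44, adjusted p = 0.185) and with the shared spread (-0.34, adjusted p = 0.458). In the joint fit RARA was not called (-0.13, adjusted p = 0.571), but was with that covariate (-0.51, adjusted p = 0.0318) and with at least 10 counts in every library (-0.32, adjusted p = 0.0015). An exonic stretch of 556 bp, 14.1% of RARA, is shared with the antisense gene RARA-AS1. Counting did not use strand, so read pairs of the 2 genes cannot be told apart in it.

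RARG (ENSG00000172819, chr12:53604354-53626764, minus strand), a receptor best known from skin, had a log2FC of 0.27 ± 0.10 in the first experiment (adjusted p = 0.0588), 0.17 in the second and -0.12 in the third, none called. Leaving out ABCC1 replicate 2 of the first experiment made it a call (0.35, adjusted p = 0.0229), as did the fit without a filter on low counts (0.30, adjusted p = 0.0057). As shares of the summed CPM per kilobase of the 3 receptors, RARA held 76.2% ± 1.04 in the empty vector cells of the first experiment and 72.8% ± 1.87 in the ABCC1 cells (SD, n = 3). RARB held 13% ± 1.11 and 10.3% ± 1.71, and RARG 10.8% ± 0.519 and 16.9% ± 0.505, with no overlap between the lines for any of the 3, though RARA's ranges nearly met (75.01% and 75.00%). In the repeat experiments RARA held 58.8% to 60.6% in the group means, RARG 26.5% to 33.4% and RARB 7.19% to 14.7%, and after background was taken off 62.9% to 70.3%, 23.5% to 33.7% and 3.45% to 6.30%. The order was RARA, RARG, RARB in those groups and in the ABCC1 cells of the first experiment, and RARB came before RARG only in the empty vector cells of the first, of the 6 groups. Background was an estimated 24.7% and 11.5% of the RARG level in the empty vector and ABCC1 cells of the second experiment and 38.4% and 32.9% in the third.

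**Figure D4:**
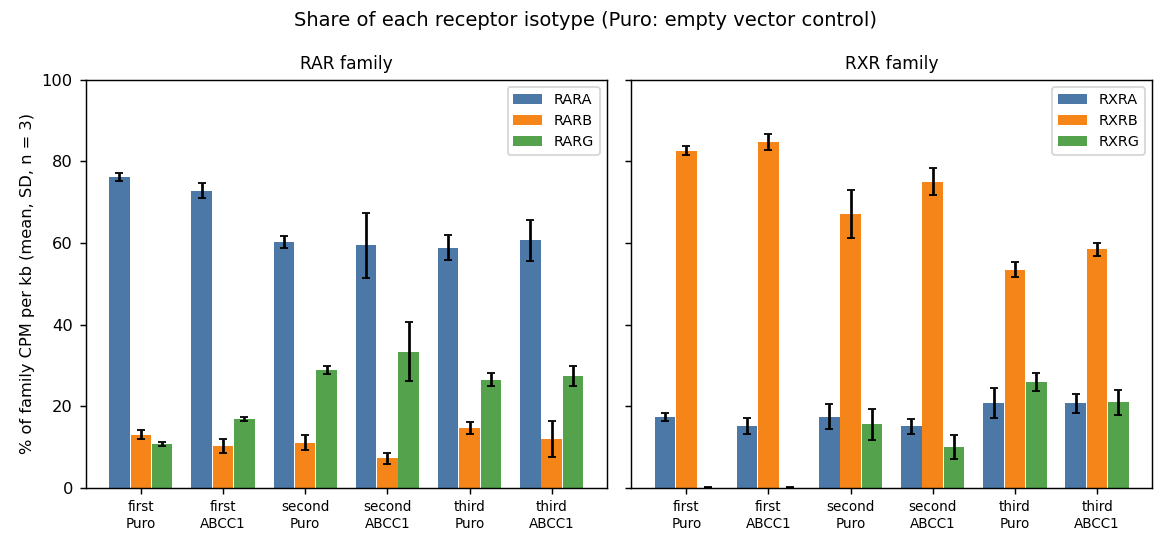
Share of each receptor isotype in the summed CPM per kilobase of its family, mean and SD of 3 libraries, for the 6 groups (Puro is the empty vector control). RARA and RXRB are the largest in every group, and RXRG is near 0 in the first experiment only.

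Of the RXR partners, RXRB was slightly higher in the ABCC1-overexpressing cells, by an amount close to that of well expressed genes in general. RXRB (ENSG00000204231, chr6:33161365-33168630, minus strand), one of the shared heterodimer partners, had 29.4, 27.8 and 29.6 CPM in the empty vector libraries of the second experiment and 37.5, 36.5 and 34.1 CPM in the ABCC1 libraries, which did not overlap. In the first experiment the values were 54, 58.3 and 57.0 CPM against 60.2, 62.4 and 59.2 CPM, also without overlap, and in the third 33.7, 33.6 and 37.8 CPM against 39.6, 37.5 and 35.4 CPM, with overlap. The log2FC was 0.32 ± 0.15 in the second experiment (adjusted p = 0.223), 0.10 ± 0.048 in the first (adjusted p = 0.112) and 0.10 ± 0.16 in the third (adjusted p = 0.826). The joint fit gave 0.24 ± 0.081 (adjusted p = 0.0387), a fold of 1.18. This value lay 0.04 above the median of the 9586 well expressed genes, and 57.7% of them had a lower one. The call ended with RLE size factors (0.14, adjusted p = 0.192), with DESeq2 (0.15, adjusted p = 0.0716) with at least 10 counts in every library (0.05, adjusted p = 0.492) and with the background covariate (0.25, adjusted p = 0.488). With the first experiment taken alone, leaving out its ABCC1 replicate 3 made RXRB a call (0.12, adjusted p = 0.0239). The joint call also ended without empty vector replicate 1, 2 or 3 or ABCC1 replicate 1 or 3 of the first experiment, without empty vector replicate 2 or ABCC1 replicate 1 or 2 of the second, and without empty vector replicate 1 or ABCC1 replicate 2 or 3 of the third, at values of 0.23 to 0.25. RXRB shares 331 bp of exon (8.26%) with SLC39A7 on the other strand.

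RXRA (ENSG00000186350, chr9:137208944-137332431, plus strand), the partner receptor most often studied, had 36.0, 33.6 and 34.2 CPM in the empty vector libraries of the first experiment and 30.2, 28.6 and 36.6 CPM in the ABCC1 libraries. Its log2FC was -0.12 in the first experiment, -0.07 in the second and -0.03 in the third, and the libraries of the lines overlapped in each. Background was an estimated 16.8% to 46.7% of its level in the 4 groups of the repeat experiments. The 95% interval of the joint value was -0.19 to 0.17, and with at least 10 counts in every library RXRA became a call (-0.19, adjusted p = 0.0452). In the first experiment it became a call without ABCC1 replicate 3 (-0.23, adjusted p = 8.03e-04). Within the RXR family, RXRB held 82.6% ± 1.05 of the summed CPM per kilobase in the empty vector cells of the first experiment and RXRA 17.3% ± 1.09 (SD, n = 3). RXRG, the third isotype and not among the 10 genes, held 0.0277% there, but 15.5% ± 3.84 and 25.9% ± 2.24 in the empty vector cells of the second and the third, and 12.1% and 22.8% after background was taken off. Those 2 experiments used the other kit and had a higher background, and the part of either in the RXRG share was not tested.

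The enzymes that limit retinoic acid were the lowest of the 10 genes per kilobase in the first experiment, whereas in the empty vector cells of the second CYP26A1 ranked above RARB, with overlapping ranges. CYP26A1 (ENSG00000095596, chr10:94833232-94837647, plus strand), the hydroxylase that retinoic acid itself induces, had 2 or 3 read pairs in each library of the first experiment, at or under the floor of 3 counts treated as a signal, so no fold is given. In the second experiment it had 103, 82 and 41 read pairs in the empty vector controls and 5, 34 and 33 in the ABCC1 libraries. All ABCC1 libraries were below all empty vector libraries, a fold of 0.302 (log2FC -1.73 ± 0.57 SE, adjusted p = 0.10) that was not called. It was called with limma-voom (-2.09, adjusted p = 0.0424), without a filter on low counts (-1.68, adjusted p = 0.0431) and with the shared spread (-1.72, adjusted p = 0.0154). With the olfactory receptor level as a covariate the value was -0.27 (adjusted p = 0.979). Background made up an estimated 46.3% of the CYP26A1 level in the empty vector cells and 80.1% in the ABCC1 cells of that experiment. In the third it had 67, 32 and 68 read pairs against 21, 69 and 29, with overlap (log2FC -0.66, adjusted p = 0.336) and with background at 72.9% and 91.4% of the level. Without ABCC1 replicate 2 that value was -1.34 (adjusted p = 0.0531) and without ABCC1 replicate 1 it was -0.32.

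CYP26B1 (ENSG00000003137, chr2:72356367-72375167, minus strand), the second retinoic acid hydroxylase, had 4 to 14 read pairs per library in the first experiment and was not tested there. Its log2FC was -0.29 in the second and -0.26 in the third experiment, with overlapping libraries and levels of 0.948 to 1.48 times background. DHRS3 (ENSG00000162496, chr1:12627939-12677737, minus strand), which lowers the supply of retinaldehyde, had 51, 30 and 31 read pairs in the empty vector libraries of the first experiment and 40, 21 and 48 in the ABCC1 libraries, or 1.17, 1.10 and 0.983 against 0.707, 0.651 and 0.828 CPM. These did not overlap, and the fold was 0.678 (log2FC -0.56 ± 0.18 SE, adjusted p = 0.0346). The call was present in 4 of 14 alternatives. It was lost with DESeq2 (log2FC -0.57, adjusted p = 0.132), without a filter on low counts (-0.54, 0.0835), with the replicate block (-0.57, 0.0686), with the background covariate (-0.47, 0.449), with the shared spread (-0.46, 0.837) and without empty vector replicate 1, 2 or 3 (-0.49, -0.56 and -0.63) or ABCC1 replicate 1 or 2 (-0.52 and -0.51). In the repeat experiments the log2FC was -0.10 and -0.20, with overlap and at 0.972 to 1.74 times background.

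A call in one experiment and none in another does not show a difference between them, so the effect of ABCC1 was compared across experiments in the joint fit. None of the 10 genes passed, at an adjusted p of at most 0.05, and none at an unadjusted p under 0.05, where 1.19% of all genes passed the adjusted test in edgeR. DESeq2 also called 0. A p that misses the threshold does not show that the effects were alike. The smallest unadjusted p was that of CRABP1 (adjusted p = 0.554), whose log2FC in the third experiment was 1.09 below that in the second. For RARA the second experiment lay 0.33 above the first and the third 0.29 above it (adjusted p = 0.877).

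Genes around this core were read from 4 lists. Of 35 genes for retinoid binding, transport and metabolism, 16 were tested in the first experiment, with 3 higher and 2 lower, against 37.6% called of all genes. None of the 33 tested in the second was called, where 1.7% of all genes were, and 1 of 33 was in the third, against 2.8%. In the joint fit 2 rose and 2 fell of 33 (9.39% and 3.55% of all genes, and 37.4% and 2.77% of the well expressed ones). STRA6, the membrane receptor for retinol uptake, was the most abundant named gene of the list and fell from 416 to 318 CPM in the first experiment (log2FC -0.39, adjusted p = 0.0030), with values of 0.01 in the second and -0.49 in the third, not called. RDH14, a retinol dehydrogenase, rose in the first experiment (0.27, adjusted p = 0.0038) and the third (0.75, adjusted p = 0.0034) and had 0.51 in the second (adjusted p = 0.0996). RDH11, an enzyme of the same family, had -0.14 in the first, 0.49 in the second (adjusted p = 0.0982) and 0.20 in the third, not called. ALDH1A2, which makes retinoic acid from retinaldehyde, had -0.16 in the first, -0.74 in the second (adjusted p = 0.119) and -0.47 in the third (adjusted p = 0.127).

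Among 19 other receptors and RXR partners, 7 of 15 tested rose in the first experiment and 0 fell, beside 17.9% higher and 19.7% lower over all genes. In the second 2 of 19 rose (1.25% of all genes), in the third 2 of 19 (2.03%), and in the joint fit 6 rose and 3 fell (9.39% and 3.55% of all genes, and 37.4% and 2.77% of the well expressed ones). The same genes, RORB and NR2F2, were the ones called in all 3 experiments. RORB, an orphan receptor named for its resemblance to the RARs, had 2306, 1416 and 1722 read pairs in the empty vector libraries of the first experiment and 5563, 2951 and 5038 in the ABCC1 libraries. Its mean rose from 53.2 to 92.2 CPM there, from 23.4 to 40.0 in the second and from 28.1 to 53.2 in the third. The log2FC was 0.79 (adjusted p = 1.47e-06), 0.77 (adjusted p = 0.0162) and 0.92 (adjusted p = 6.78e-05). NR2F2, an orphan receptor (COUP-TFII) that can bind retinoid response elements, rose by 0.40, 0.66 and 0.66 (adjusted p = 0.0085, 0.0387 and 0.0072). PPARD, a fatty acid receptor that pairs with RXR, rose in the first (0.37, adjusted p = 3.10e-04) and had 0.36 in the second and in the third without a call.

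Of the 20 coregulators, all tested, 3 rose and 3 fell in the first experiment (17.9% and 19.7% of all genes), 0 were called in the second (1.7% of all genes) and 1 rose in the third (2.03%). In the joint fit 10 rose and 0 fell, beside 9.39% and 3.55% of all genes, with a median log2FC of 0.27 against -0.08 over all genes tested and 0.20 over the well expressed genes, of which 37.4% were called higher. SIN3A, a corepressor scaffold, rose in the first experiment (0.35, adjusted p = 1.57e-04), and had 0.59 in the second and 0.37 in the third without a call. The coactivator NCOA3 fell in the first (-0.27, adjusted p = 9.67e-04) and had 0.17 in the second and -0.18 in the third. PRAME, a repressor of RAR signaling expressed in many tumors, rose in the third (0.56, adjusted p = 0.0421) and had -0.08 in the first and 0.43 in the second. NSD1, a histone methyltransferase, rose in the first (0.14, adjusted p = 0.0168) and had 0.63 in the second (adjusted p = 0.0703) and 0.50 in the third. MED1, the Mediator subunit that receptors contact, had 0.04 in the first, 0.59 in the second (adjusted p = 0.0659) and 0.24 in the third.

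Of 35 genes reported to respond to retinoids, 19 were tested in the first experiment, where 7 rose and 6 fell, beside 17.9% and 19.7% of all genes. In the second 0 of 34 were called (1.7% of all genes), and in the third 1 rose and 1 fell of 34 (2.8% called of all genes). In the joint fit 5 rose and 3 fell of 34 (9.39% and 3.55% of all genes, and 37.4% and 2.77% of the well expressed ones). TSHZ3, a zinc finger factor, fell in the first experiment (log2FC -0.81, adjusted p = 5.68e-06) and the third (-0.68, adjusted p = 0.0093) and had 0.29 in the second (adjusted p = 0.368). ISL1, a neuronal homeobox factor, fell in the first (-0.56, adjusted p = 1.93e-06) with 0.27 and -0.13 in the others, not called. NAV2 rose in the first (0.40, adjusted p = 1.45e-04) and had 0.56 in the second and 0.24 in the third. TSHZ1 rose in the first (0.15, adjusted p = 0.0263) and had 0.63 in the second (adjusted p = 0.0612) and 0.28 in the third. HOXD3 rose in the third (0.53, adjusted p = 0.0474) and had -0.08 in the first and 0.28 in the second. The median log2FC of the list was 0.00 in the first experiment, -0.56 in the second and -0.10 in the third, beside 0.01, -0.19 and -0.09 over all genes. These medians cover unlike sets, as 19 genes were tested in the first experiment and 34 in the second. Background in the second was 0.302 CPM per kilobase in the ABCC1 and 0.576 in the empty vector libraries, and its part in the value of -0.56 was not tested.

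The genes most like CRABP2 across the 18 libraries, after the mean of each experiment was taken off, were NES (Pearson r = 0.981), CLN8 (0.973) and SH3PXD2A (0.97), out of 16689 genes tested in every experiment. Those most like RARB were CELF2-DT (0.948) and ZFPM2 (0.94), and those most like RXRB were CCDC93 (0.91), VIP (0.909) and TBCK (0.887). Among the members themselves CRABP2 and RARB had r = -0.773 and CRABP2 and RXRB r = 0.612. These values describe 18 libraries that share lines, depth and background, and no test was made of them.

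NES, which encodes the intermediate filament nestin of neural progenitors, is a direct neighbor of CRABP2, and the genes around CRABP2 were therefore read after this was seen. NES lies 22208 bases from CRABP2 on the same strand, and its log2FC was 0.98 in the first experiment (adjusted p = 3.23e-05), 0.81 in the second (adjusted p = 0.0179) and 0.78 in the third (adjusted p = 0.0023). Of the 8 other genes tested in all experiments within 50 kb of CRABP2, 3 were called in the joint fit, all higher: NES (0.92), PRCC (0.46, adjusted p = 8.52e-04) and ISG20L2 (0.44, adjusted p = 2.33e-04). Of the well expressed genes 40.1% were called in that fit. On the far side of NES, BCAN, a brain proteoglycan, and BCAN-AS2 rose in the first experiment (1.12 and 0.91, adjusted p = 1.12e-04 and 0.0280) and had negative values in the second (-0.67 and -0.29) and the third (-0.25 and -0.22), none called. No gene within 50 kb of RARB was called in the joint fit, of 2 tested, and 1 of 5 was around RXRB.

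**Figure D5:**
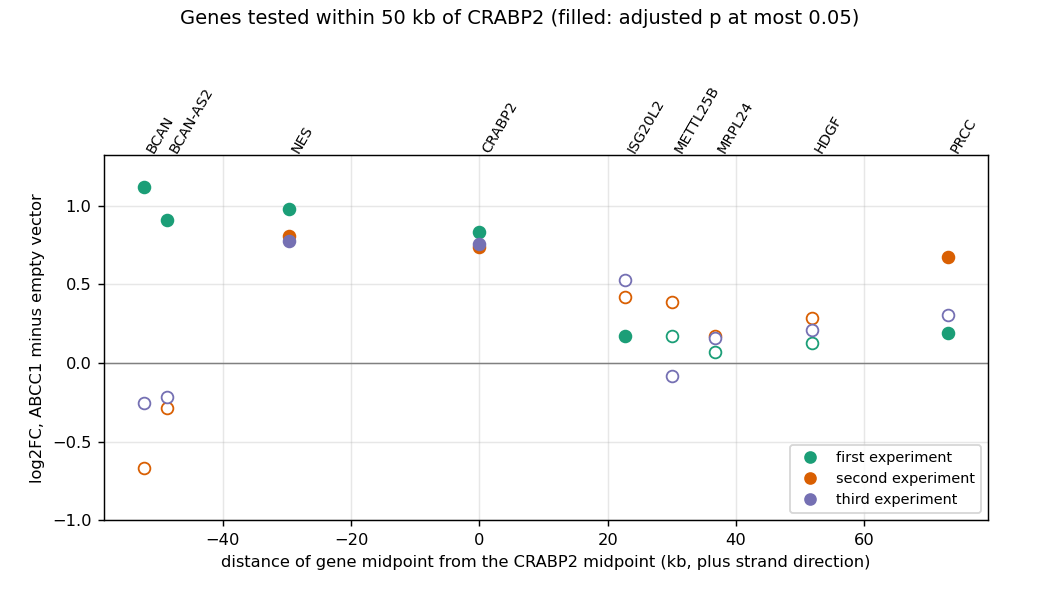
log2FC, ABCC1-overexpressing minus empty vector control, of CRABP2 and the 8 other genes tested within 50 kb of it, against the distance of each gene's midpoint from that of CRABP2 in kb. Colors are the 3 experiments, and filled points passed an adjusted p of 0.05. NES and CRABP2 are filled and between 0.74 and 0.98 in all 3 experiments, and the 5 genes on the right have 0.07 to 0.19 in the first experiment.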

How the data were processed

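RNA of 18 libraries was sequenced, 3 empty vector and 3 ABCC1 libraries in each of 3 experiments. The authors aligned the reads to GRCh37 with STAR 2.7.3a and deposited raw counts of read pairs on exons, made with featureCounts (Subread 2.0.0) without regard to strand. The labels name a TruSeq and a total RNA kit for the first experiment, and the one of the study's methods was used. Genes were kept with edgeR's filterByExpr at a minimum count of 10, normalized by TMM and tested within each experiment with edgeR 4.0.16 (R 4.3.3, robust quasi-likelihood test, two-sided, Benjamini-Hochberg over all features). A gene was called at an adjusted p of at most 0.05. The joint fit took the mean of the 3 differences and, by an F test, their difference. CPM uses TMM library sizes. Per kilobase levels use the exon length in the file, and background is the summed olfactory receptor level. Exact permutation tests used log2(CPM + 0.1). Precision follows the depth, and a floor of 3 counts covers counting error only.

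The 10 genes and the lists were chosen with earlier results of these data known, so their counts are descriptions. All members are named. From the lists, the genes called in one direction in at least 2 experiments and the 2 genes with the smallest adjusted p in each experiment are named. For likeness, the 3 genes with the highest r of log2(CPM + 0.5) are named for each member called in the joint fit with a mean of at least 1 CPM, except 1 that is not reported here. Genes beside CRABP2, the well expressed genes and the joint fit with background covariates (1 slope per experiment) were added after the values were seen. Alternatives were DESeq2 1.42.0, limma-voom (limma 3.58.1), RLE factors, other filters, a replicate block, a shared spread, the background covariate and each library left out. The scripts were tested on simulated data. No columns of other samples were present.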

Additional observations from a re-analysis of the deposited data

How the results depend on the processing

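Of 619 recomputed log2FC values of the members, 531 kept their direction and their side of the threshold, 39 lost a call, 12 gained one and 37 changed sign. The CRABP2 calls in the first experiment and in the joint fit were present in all alternatives run, and limma-voom and a fit without a filter were not run on the joint fit. The background covariate in the joint fit, added after the data were seen, ended the RARB and RXRB calls and made RARA one. Within each experiment this covariate separated the lines fully, so its part cannot be told apart from that of the line. The members called in the first experiment fell from 4 to 2 with the background covariate (8.66% of all genes called, against 37.6%) and to 1 with the shared spread (3.31%), and were 3 to 6 with a library left out (26.2% to 46.2% of all genes), the 6 without ABCC1 replicate 3. In the second experiment the count of 1 became 2 with limma-voom (3.82% of all genes) and without a filter (2.58%), 3 with the shared spread (10.7%) and 0 with the covariate (0.0352%, against 1.7%), and was 0 to 1 with a library left out (0.0212% to 3.72%). In the third it became 0 with the covariate (0.419%, against 2.8%) and was 0 to 1 with a library left out (1.01% to 7.07%). The cause was not tested. The joint count of 3 was 4 with at least 10 counts in every library (36.8% of all genes, against 12.9%), 2 with the covariate (1.96%) and 2 or 3 otherwise (10.1% to 14.8%), and the count of differences between experiments was 0 under every alternative run.

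None of the values that changed sign was called. With DESeq2 they were 0.10 for RARA and 0.0329 for RXRA in the second experiment and 0.0292 for RXRA in the third, and with RLE factors 0.10, 0.0327 and 0.0292. Without a filter RARA was 0.0442 in the second. With the background covariate CRABP1 was -0.041 in the first and 0.27 in the third, and DHRS3 was 0.48 in the second, 0.13 in the third and 0.081 in the joint fit. With the shared spread RXRA was 0.0473 in the third, and with at least 10 counts in every library the joint RARG was -0.010. With a library left out, RARA lay between -0.27 and 0.19 in the second and between -0.21 and 0.0327 in the third, RARG between -0.0055 and 0.30 and RXRA between -0.18 and 0.13 in the second, RXRA between -0.12 and 0.0766 in the third and between -0.0572 and 0.0693 in the joint fit, DHRS3 between -0.26 and 0.17 in the second and between -0.42 and 5.85e-04 in the third, and CRABP1 between -0.27 and 0.016 in the third.

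RLE factors moved the median log2FC of all genes in the second experiment from -0.19 to -0.08. Between lines, libraries of the same number correlated on average at -0.093, -0.0851 and 0.0527 in the 3 experiments. Those of other numbers correlated at 0.0467, 0.0422 and -0.0265. With 3 libraries per line these values do not settle whether the numbers mark shared weeks of plating. With the replicate block the genes called were 5356 in place of 6382 in the first experiment, 710 in place of 581 in the second and 1885 in place of 1021 in the third, and among the members the DHRS3 call of the first experiment was lost (-0.57, adjusted p = 0.0686) and no other. With at least 10 counts in every library RARA (-0.32, adjusted p = 0.00153) and RXRA (-0.19, adjusted p = 0.0452) were called in the joint fit. The genes of the 4 lists and the genes beside CRABP2 were fitted under the main settings alone. The estimates of members near background in the repeat experiments are limited by it, and CYP26A1 and CYP26B1 had too few counts to test in the first.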
